A study of Rattus norvegicus with 50 samples.

Results

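The interleukin-1 family and inflammasome genes described here are Il1a, Il1b, Il18, Il33, Il1rn, Il1r2, Il1r1, Nlrp3, Pycard and Casp1, 10 of the 25208 genes tested in rat lung. They were found by gene symbol among the gene spots of the arrays, where 11 probes on 45 spots carried their names. Male F344 rats, an inbred strain, aged 12 weeks, inhaled a nanostructured TiO2 aerosol (P25) at 10 mg/m3, and control rats inhaled air. Exposure was nose-only, for 6 hours per day, 5 days per week and 4 weeks. Lungs were sampled once exposure had ended (D0) or after a recovery of 3, 28, 90 or 180 days (D3, D28, D90 or D180), from 5 control and 5 exposed rats each time, which gave 50 arrays in all. RNA came from the whole accessory lobe, so more or fewer cells of a type and more or less RNA per cell cannot be told apart.

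Interleukin-1 alpha and beta are cytokines that start inflammation through the receptor encoded by Il1r1. The receptor antagonist encoded by Il1rn occupies that receptor without signalling, and the decoy receptor encoded by Il1r2 binds the cytokines without signalling. Il18 and Il33 encode cytokines of the same family that use other receptors. Interleukin-1 beta and interleukin-18 are made as precursors that are cut by caspase-1 (Casp1), which is activated on inflammasomes, complexes built from a sensor such as Nlrp3 and the adaptor Asc, encoded by Pycard. Particles taken up by macrophages are a known trigger of the Nlrp3 inflammasome, and that step acts on proteins, which the arrays did not measure.

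The sequences that the measurements of the signalling receptor and of its decoy rest on are shown first, since both genes lie on chromosome 9 and encode related proteins. The deposited array files place both probes on the rat rn4 assembly on the plus strand, and each stretch is longer than its probe, so the probe crosses an intron. The Il1r2 probe spans chr9:39316654-39319494 and the Il1r1 probe chr9:39472634-39473165, and each is printed 5′ to 3′ in lower case.
Il1r2: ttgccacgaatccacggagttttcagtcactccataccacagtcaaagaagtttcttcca
Il1r1: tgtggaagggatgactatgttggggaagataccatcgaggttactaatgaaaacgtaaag

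The promoters of Il1a, Il1b and Il1rn are shown because these genes lie on the same chromosome, encode both agonists and their antagonist, and did not change alike. They are the 250 bases before the start in the RefSeq annotation of assembly GRCr8, at chr3:136990018-136990267 on the minus strand for Il1a, chr3:137036582-137036831 on the minus strand for Il1b and chr3:27520072-27520321 on the plus strand for Il1rn. Capitals mark matches to 4 motifs searched on both strands, namely TATAAA (in 12.9% of the 33469 promoters of this length), TGANTCA for AP-1 (6.34%), GAGGAAG for PU.1 (10.2%) and the NF-kappaB motif (6.33%).
Il1a: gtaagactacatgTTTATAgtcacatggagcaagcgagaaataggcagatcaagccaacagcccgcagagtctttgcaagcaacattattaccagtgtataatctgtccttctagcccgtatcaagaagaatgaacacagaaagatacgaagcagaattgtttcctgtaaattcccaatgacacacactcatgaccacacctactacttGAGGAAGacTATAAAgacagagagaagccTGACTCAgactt
Il1b: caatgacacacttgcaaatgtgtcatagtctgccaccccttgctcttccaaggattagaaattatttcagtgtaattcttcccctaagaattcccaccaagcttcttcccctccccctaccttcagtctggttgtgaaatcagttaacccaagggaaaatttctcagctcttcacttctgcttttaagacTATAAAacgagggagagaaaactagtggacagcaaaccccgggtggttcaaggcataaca
Il1rn: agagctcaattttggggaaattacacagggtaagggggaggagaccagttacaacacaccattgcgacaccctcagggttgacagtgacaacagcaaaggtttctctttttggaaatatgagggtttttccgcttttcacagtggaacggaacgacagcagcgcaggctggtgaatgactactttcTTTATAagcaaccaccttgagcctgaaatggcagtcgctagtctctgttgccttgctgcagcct

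The Il1a promoter held TATAAA 237 bases before the start on the reverse strand and 32 bases before it on the gene's own strand, with a PU.1 match at 41 and an AP-1 match at 12 bases. The Il1b promoter held TATAAA at 60 bases and the Il1rn promoter held it at 64 bases on the reverse strand. Of the other genes with an entry, Nlrp3 had a PU.1 match at 73 bases, Il1r1 an NF-kappaB match at 135 bases, and Il33 a TATAAA match at 29 bases in the second of its 2 promoters. Promoters were found for 9 of the 10 genes, all but Il1r2. These matches describe letters in the window and were not tied to any measured change.

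All 10 genes were well above background on all 50 arrays, and none was saturated. Per array, 68.8% to 84.5% of gene spots passed that mark. Of the 7 slides, slides 1 to 4 carried the rats of D0, D3 and D28 and slides 5 to 7 those of D90 and D180, except that exposed rat 1 of D3 was on slide 7. Control rat 2 of D3 had the highest value of the 5 D3 controls for Il1a, Il1b, Il1rn, Il1r2 and Nlrp3. Its neutrophil score, the mean of 15 marker genes on the log2 scale after centring each gene, was 0.158, against -0.370 to -0.0926 in the other D3 controls. In the D3 control group, 11 of the 15 marker genes were well above background on at least 3 arrays, and the dim ones entered the score equally. The D3 changes of Il1a, Il1b, Il1rn, Il1r2, Nlrp3 and Il33 are also given without control rat 2.

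On D0, the genes that were over-expressed in exposed lungs were Il1rn and Il1r2, which encode the proteins that restrain interleukin-1, while neither cytokine gene reached the limits. On D3, Il1rn and Il1r2 were again over-expressed and Il1b joined them. A gene was called over- or under-expressed at a change of at least 1.5-fold with an adjusted p under 0.05 in limma. The called genes were 2 of 10 on D0 and 3 of 10 on D3, all higher, against 4.28% and 3.48% of all genes called in either direction, or 2.77% and 1.98% called higher. No member was called on D28, D90 or D180 by limma, where 1.33%, 0.381% and 0.325% of all genes were called. At an unadjusted limma p under 0.05, 4, 1 and 2 members passed on these days, against 4188, 1793 and 2028 of the 25208 genes. By adjusted p alone, without the fold limit, 4, 4, 2, 1 and 1 members passed on the 5 days in turn, against 13.5%, 10.4%, 3.88%, 1.05% and 0.893% of all genes. The median log2 change of the 10 genes was 0.27, 0.22, 0.12, -0.02 and 0.06 over the 5 days, while the median of all genes stayed between -0.01 and 0.00.

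**Figure D1:**
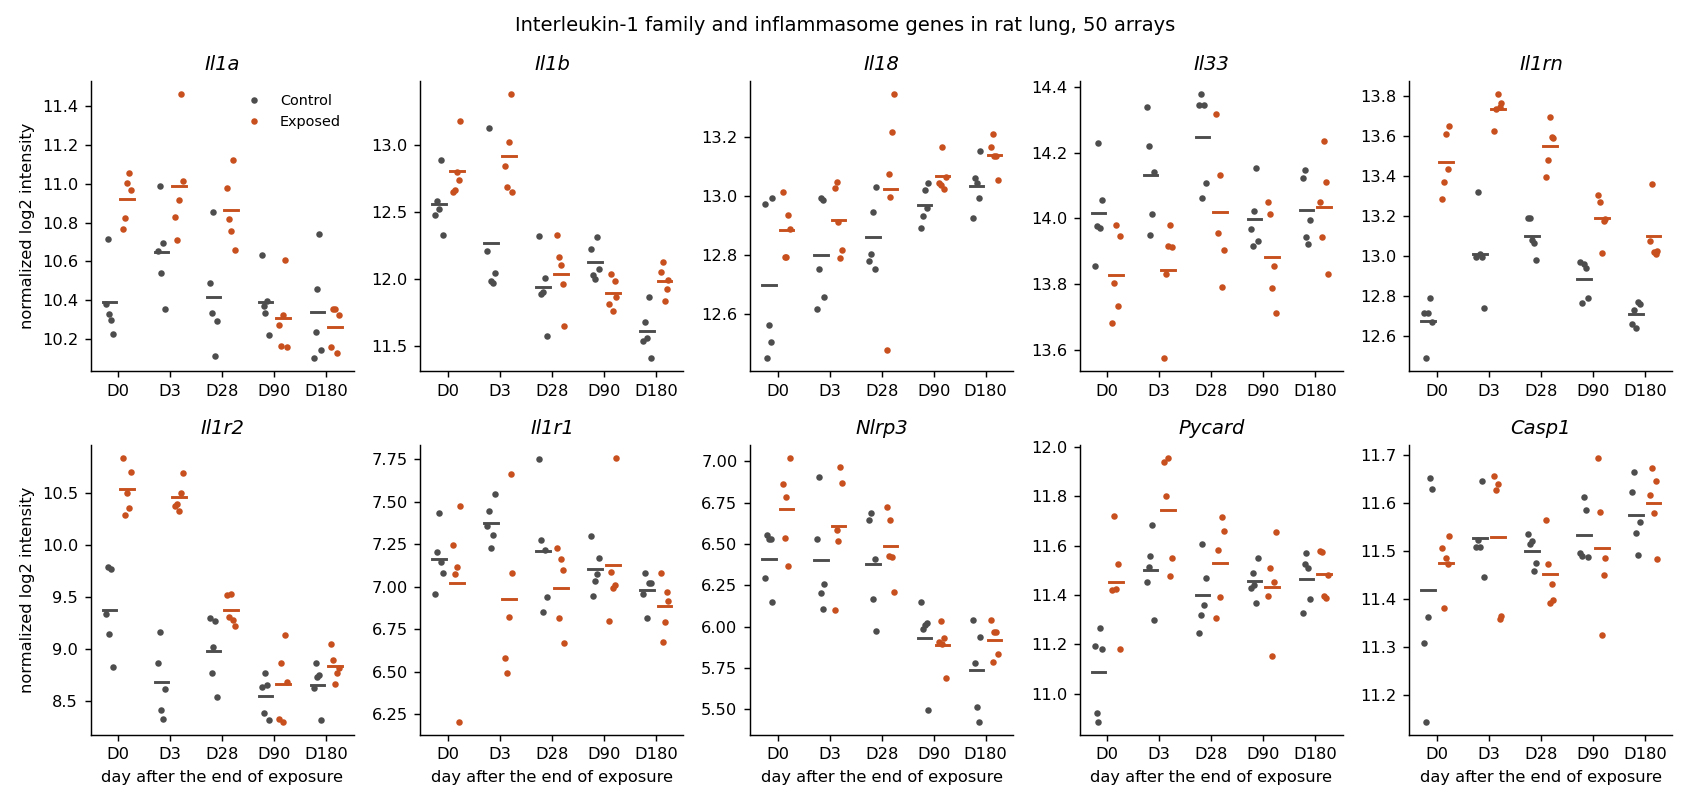
Normalized log2 intensity (vertical axes, scaled per gene) of each gene on every array, by day after the end of exposure, with control rats in grey, exposed rats in orange, points for rats and bars for the means of 5. The exposed Il1rn points lay above all control points on each of the 5 days, and those of Il1r2 did so on D0 and D3.

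Il1r2, the decoy receptor, had the largest change of the 10 genes on D0 and on D3. On D0, the normalized log2 intensities of the 5 control rats were 9.34, 9.79, 9.14, 9.77 and 8.82, and those of the 5 exposed rats were 10.83, 10.29, 10.50, 10.36 and 10.70. On D3, the control values were 8.87, 9.17, 8.42, 8.33 and 8.61 and the exposed values were 10.37, 10.39, 10.32, 10.50 and 10.69. The groups did not overlap on either day, where 4.76% and 3.35% of all genes had every exposed rat above every control rat, and the exposed means of both days lay close together while the D3 controls lay lower than the D0 controls. The change was 2.24-fold on D0 (log2 1.16, SE 0.168, adjusted p = 1.16e-06) and 3.42-fold on D3 (log2 1.78, adjusted p = 9.21e-11, and 1.90 without control rat 2).

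From D28 on, the decoy receptor no longer passed. The D28 controls had 9.29, 8.77, 9.02, 9.27 and 8.54, and the exposed rats 9.52, 9.30, 9.53, 9.28 and 9.22, so the groups overlapped. The log2 change was 0.39 on D28 (adjusted p = 0.21), 0.11 on D90 and 0.18 on D180. When the 10 groups were ordered by mean Il1r2 level, exposed D0 (10.53) and exposed D3 (10.45) stood at the top, followed by control D0 and exposed D28 (both 9.37) and the remaining 6 groups between 8.55 and 8.98. Of the 9 steps between neighbours in that order, 7 were smaller than the pooled SD of 0.268, the exceptions being the step below exposed D3 and the step below exposed D28.

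Il1rn, the receptor antagonist, changed less than Il1r2 on D0 and D3 but was the member whose exposed rats lay above every control rat of the same day on all 5 days, a pattern shared by 54 genes, or 0.214% of those tested. On D0, the control values were 12.71, 12.49, 12.71, 12.79 and 12.67 and the exposed values 13.28, 13.37, 13.61, 13.43 and 13.65. On D3, the controls had 12.99, 13.32, 13.01, 12.99 and 12.74 and the exposed rats 13.62, 13.73, 13.81, 13.74 and 13.76. The change was 1.73-fold on D0 (log2 0.79, SE 0.081, adjusted p = 3.9e-10) and 1.65-fold on D3 (log2 0.72, adjusted p = 6.92e-09, and 0.80 without control rat 2).

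On the 3 later days, Il1rn passed the adjusted p but stayed under the fold limit, so it was not called. On D28, its controls had 13.19, 13.19, 13.08, 13.06 and 12.98 and its exposed rats 13.39, 13.48, 13.69, 13.60 and 13.59, a 1.37-fold difference (adjusted p = 2.85e-04). On D90, the controls had 12.97, 12.76, 12.96, 12.94 and 12.79 and the exposed rats 13.30, 13.27, 13.01, 13.17 and 13.18, a 1.24-fold difference (adjusted p = 0.0498, between 0.0195 and 0.17 over its alternatives). On D180, the controls had 12.66, 12.73, 12.64, 12.77 and 12.76 and the exposed rats 13.07, 13.36, 13.02, 13.01 and 13.02, a 1.31-fold difference (adjusted p = 0.0069, between 0.0041 and 0.0631 over its alternatives). The groups did not overlap on any of these days, where 2.23%, 2.2% and 2.77% of all genes had every exposed rat above every control rat. In the order of the 10 group means, exposed D3 was highest (13.73) and control D0 lowest (12.67), and 5 of the 9 steps between neighbours were under the pooled SD of 0.124.

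Il1b, the main secreted interleukin-1 of inflamed tissue, was over-expressed on D3 alone. The D3 controls had 12.21, 13.13, 11.98, 11.97 and 12.05 and the exposed rats 12.85, 12.69, 13.02, 13.38 and 12.65. Control rat 2 lay above 4 of the 5 exposed rats, and the other 4 controls lay below all of them. The change was 1.57-fold (log2 0.65, SE 0.158, adjusted p = 0.00368), and without control rat 2 it was 0.86 on the log2 scale (adjusted p = 1.16e-05). The call rested close to the fold limit, since the log2 change of Il1b was 0.58 without control rat 3 or 4 and 0.53 without exposed rat 4 (adjusted p = 0.0206), under the limit in each case. With the D3 arrays fitted alone the adjusted p was 0.214.

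On the other days Il1b was not called. On D0, the controls ran from 12.33 to 12.89 and the exposed rats from 12.65 to 13.18, with a log2 change of 0.25 (adjusted p = 0.392). The change was 0.10 on D28, -0.24 on D90 and 0.37 on D180 (adjusted p = 0.454), where the controls ran from 11.41 to 11.87 and the exposed rats from 11.83 to 12.12. Exposed D3 (12.92) and exposed D0 (12.81) had the highest group means and control D180 (11.61) the lowest, and 7 of the 9 steps between neighbours were under the pooled SD of 0.251.

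Il1a, the other agonist, which cells release on damage, passed the adjusted p on D0 and D28 without reaching the fold limit. On D0, its controls had 10.38, 10.72, 10.33, 10.30 and 10.23 and its exposed rats 10.77, 10.83, 11.003, 11.05 and 10.97, with no overlap. That was a 1.45-fold difference (log2 0.53, SE 0.132, adjusted p = 0.00344), which became a call without control rat 2 (0.61, adjusted p = 0.00133). Its adjusted p on D0 reached 0.0691 over its alternatives. On D28, the controls ran from 10.11 to 10.86 and the exposed rats from 10.66 to 11.12 (log2 0.45, adjusted p = 0.0412, between 0.0072 and 0.272 over its alternatives). The log2 change was 0.34 on D3 (adjusted p = 0.0997, and 0.42 with an adjusted p of 0.0402 without control rat 2), -0.08 on D90 and -0.07 on D180. Over its alternatives the D3 change ran from 0.22 to 0.42, with an adjusted p from 0.0311 to 0.356. The second Il1a probe, on a single spot, gave 0.40, 0.33, 0.46, -0.05 and -0.04 over the 5 days, with the same sign as the first probe on each day. In the order of group means, the exposed groups of D3 (10.99), D0 (10.92) and D28 (10.87) came first, with steps between them under the pooled SD of 0.209.

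Il18 and Il33, cytokines that epithelial and other barrier cells hold ready before injury, were not called on any day. The Il18 log2 change was 0.19, 0.12, 0.16, 0.10 and 0.11 over the 5 days, with an interval of -0.02 to 0.40 on D0, and all 9 steps in the order of its group means were under the pooled SD of 0.164. The Il33 change was -0.19, -0.29, -0.23, -0.11 and 0.01. On D3, the Il33 controls had 14.34, 14.22, 13.95, 14.01 and 14.14 and the exposed rats 13.57, 13.83, 13.92, 13.98 and 13.91, so they overlapped by exposed rat 4 alone. This difference passed the adjusted p (0.0398) but not the fold limit, and without control rat 2 the change was -0.27 with an adjusted p of 0.0982.

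Il1r1, the signalling receptor, was not called on any day. Its log2 change was -0.14, -0.45, -0.21, 0.03 and -0.09. On D3, the controls had 7.36, 7.44, 7.23, 7.31 and 7.54 and the exposed rats 6.58, 6.49, 6.82, 7.66 and 7.08, so that 4 exposed rats lay below every control and exposed rat 4 lay above them all (adjusted p = 0.126). Without exposed rat 4 the gene was called lower, with -0.63 (adjusted p = 0.0129). That was the strongest of its alternatives, over which the D3 change ran from -0.63 to -0.26 and the adjusted p from 0.0129 to 0.359. Exposed rat 4 of D3 was also the highest of its group for Il1a, Il1b, Il33 and Nlrp3.

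**Figure D2:**
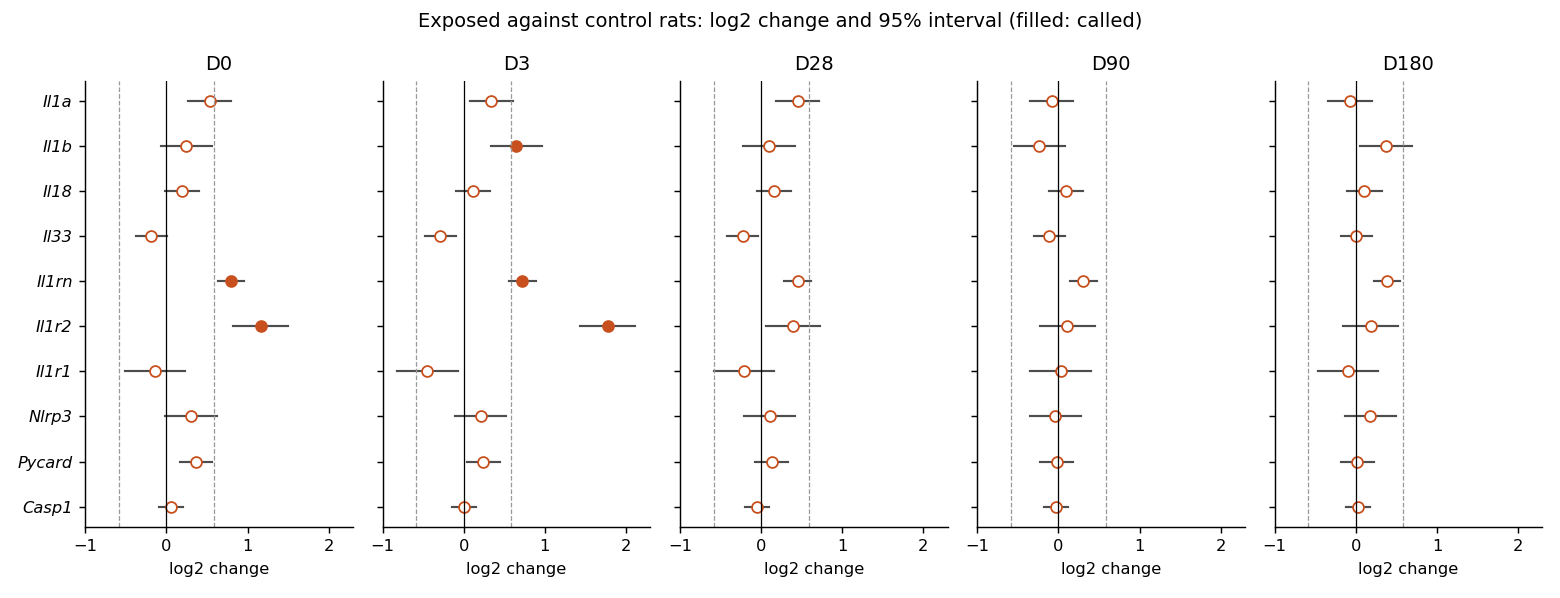
Log2 change of exposed against control rats (horizontal axes) for each of the 10 genes at each day, with lines for the 95% intervals from limma and filled points for called genes. The called genes were Il1rn and Il1r2 on D0 and Il1b, Il1rn and Il1r2 on D3, and the 5 intervals of Casp1 all held 0.

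The inflammasome genes themselves changed little. Nlrp3, the sensor, had log2 changes of 0.30, 0.21, 0.11, -0.04 and 0.18 over the 5 days. None passed the test on all arrays, with an interval of -0.01 to 0.62 on D0. The D3 change was 0.33 without control rat 2 (adjusted p = 0.226). Over its alternatives it ran from 0.10 to 0.37 (adjusted p from 0.0152 to 0.699), and the adjusted p on D0 ran from 0.0274 to 0.466. On D3, Nlrp3 was higher in exposed rats on each of the 4 slides that held both groups (0.29 to 0.44), with 1 exposed rat and 1 or 2 controls per slide. Exposed rat 1 of D3, on slide 7 without a D3 control, was left out there. Its Nlrp3 value (6.10) lay below every D3 control (6.11 to 6.90). The D0 controls of Nlrp3 had 6.30, 6.55, 6.53, 6.53 and 6.15 and the exposed rats 6.86, 6.54, 6.78, 6.37 and 7.02, so 3 exposed rats lay above every control. Pycard, the adaptor, had a log2 change of 0.36 on D0 (SE 0.10, adjusted p = 0.00912, between 2.8e-05 and 0.136 over its alternatives), under the fold limit. Its D0 controls were at 11.19, 10.92, 10.89, 11.27 and 11.18 and the exposed rats at 11.42, 11.72, 11.43, 11.52 and 11.18. Its later changes were 0.24, 0.13, -0.02 and 0.02. Casp1, the protease, had log2 changes of 0.06, 0.00, -0.05, -0.03 and 0.02, and its 5 intervals together reached from -0.20 to 0.20. All 9 steps in the order of the Casp1 group means were under the pooled SD of 0.109.

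Interaction terms of the same fit set the effect of exposure on a later day against that on D0, so the 4 comparisons share the D0 rats. The effect on Il1r2 was smaller on D90 by a log2 difference of -1.05 (SE 0.237, adjusted p = 0.00376) and on D180 by -0.98 (adjusted p = 0.00777), and it was the 1 member called there, against 2.17% and 2.24% of all genes in either direction, or 1.5% and 1.34% lower. By adjusted p alone 0, 0, 2 and 2 members passed on D3, D28, D90 and D180, against 0.928%, 2.61%, 3.77% and 3.99% of all genes. On D3 the Il1r2 effect differed from that on D0 by 0.61 (adjusted p = 0.296) and on D28 by -0.77 (adjusted p = 0.0736). The effect on Il1rn was smaller on D90 by -0.49 (SE 0.115, adjusted p = 0.00572) and on D180 by -0.41 (adjusted p = 0.0297, between 0.0066 and 0.0874 over its alternatives), both under the fold limit. For Il1a the differences were -0.62 on D90 (adjusted p = 0.0507) and -0.61 on D180 (adjusted p = 0.0561), just outside. No member was called by limma on D3 or D28, where 0.678% and 1.61% of all genes were called. At an unadjusted limma p under 0.05, 1 and 2 members passed on D3 and D28, against 2480 and 3296 of the 25208 genes. The larger Il1b effect on D3 than on D0, a log2 difference of 0.40, did not pass (SE 0.223, adjusted p = 0.585).

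**Figure D3:**
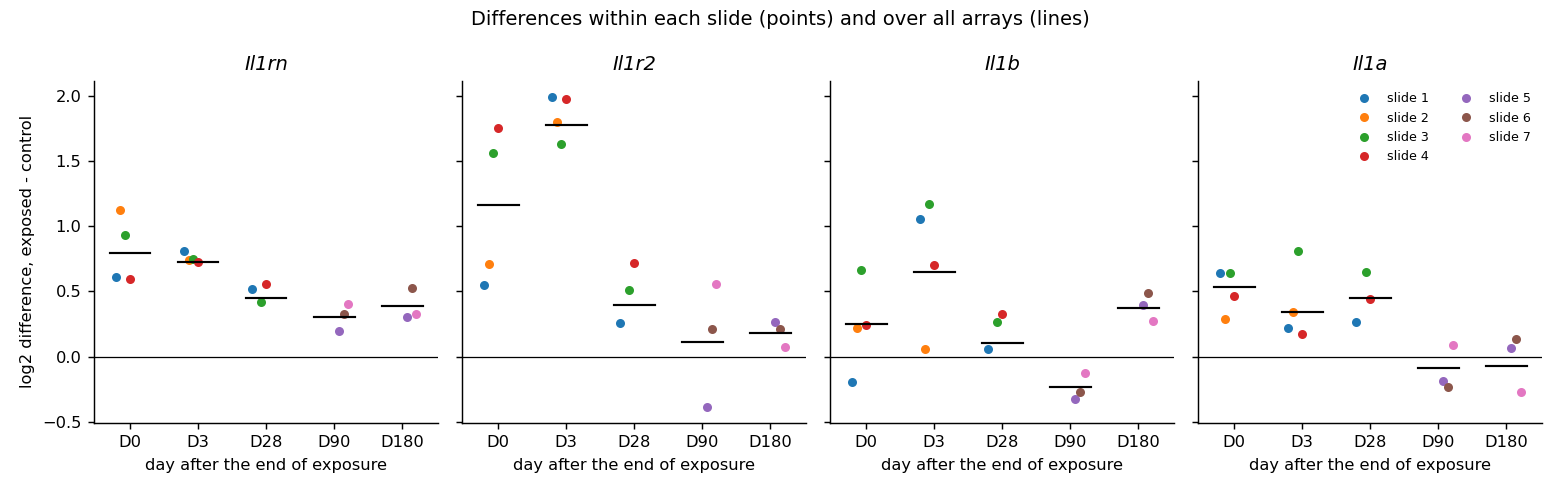
Log2 difference between exposed and control rats within each slide (coloured points, 3 or 4 slides per day) and over all arrays (black lines) for Il1rn, Il1r2, Il1b and Il1a by day. All Il1rn points lay above 0, and the Il1r2 points on D0 ran from 0.55 to 1.75.

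Each slide held arrays of both groups on the days it carried, apart from slide 2, which held no exposed rat of D28, and slide 7, whose D3 array had no D3 control beside it. The D3 differences within slides therefore leave out exposed rat 1. Each difference set 1 or 2 exposed rats against 1 or 2 control rats, on arrays that the main fit also used. Within slides, Il1rn was higher in exposed rats on 4 of 4 slides on D0 (log2 differences of 0.59 to 1.12) and on D3 (0.73 to 0.81), and on 3 of 3 slides on D28 (0.42 to 0.56), D90 (0.20 to 0.40) and D180 (0.30 to 0.53). Il1r2 was higher on 4 of 4 slides on D0 (0.55 to 1.75) and D3 (1.63 to 1.99). Il1b on D3 was higher on 4 of 4 slides, from 0.06 on slide 2, which carried control rat 2, to 1.17 on slide 3. Il1a on D0 was higher on 4 of 4 slides (0.29 to 0.64).

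Levels in control rats also differed between days. Against the D0 controls, Il1r2 was lower by -0.69 on D3 (adjusted p = 0.00519), -0.82 on D90 (adjusted p = 5.33e-04) and -0.71 on D180 (adjusted p = 0.00282). Il1b was lower by -0.62 on D28 (adjusted p = 0.0084) and by -0.95, or 1.93-fold, on D180 (adjusted p = 3.45e-05), and Nlrp3 by -0.67 on D180 (adjusted p = 0.0025). The called members numbered 1, 1, 1 and 3 on D3, D28, D90 and D180, all lower, against 2.33%, 2.49%, 5.45% and 5.51% of all genes called in either direction and 0.813%, 0.944%, 2.21% and 2.52% called lower, and the 4 comparisons share the D0 controls. By adjusted p alone 3, 2, 3 and 5 members passed, against 7.36%, 7.08%, 15.3% and 14.8% of all genes. Below the fold limit, Il1rn was higher on D3 (0.34, adjusted p = 0.00495) and D28 (0.42, adjusted p = 3.17e-04), and Pycard was higher by 0.41 on D3, 0.37 on D90 and 0.37 on D180 (adjusted p = 0.00555, 0.0101 and 0.00879). Slide and day cannot be told apart for D90 and D180, whose slides were joined to those of D0 through exposed rat 1 of D3 alone. With slide as a block no member was called on D90 or D180, and the adjusted p became 0.136 for Il1b on D180, 0.321 and 0.453 for Il1r2 on D90 and D180 and 0.763 for Nlrp3 on D180. Nlrp3 on D180 was also under the fold limit with 75th percentile scaling (-0.37), with normexp background correction (-0.35) and with the authors' processed values (-0.39). The Il1b call on D28 was lost without control rat 4 of D0 (-0.54) or control rat 5 of D28 (-0.53).

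Genes around the pathway were followed in 4 lists written by hand from general knowledge, with earlier results of these data known. The counts of called genes in these lists are therefore a description and not an independent test. Over all 25208 genes, 5894, 5496, 4188, 1793 and 2028 had an unadjusted p under 0.05 on the 5 days. Called in either direction were 4.28%, 3.48%, 1.33%, 0.381% and 0.325% of all genes, and 2.77% and 1.98% were called higher on D0 and D3. Of 18 genes for other receptors, binding proteins and ligands of the family, 14 were tested and limma called none on any day, with 1, 1, 2, 0 and 1 at an unadjusted p under 0.05 on D0, D3, D28, D90 and D180. Of the 18 genes of Toll and interleukin-1 receptor signalling, all tested, limma called 1, Peli2, an E3 ubiquitin ligase of that pathway, lower on D28 (log2 -0.70, SE 0.21, adjusted p = 0.047). Peli2 was not well above background on any exposed array of D28 and was so on 4 control arrays. Its adjusted p ran from 0.012 to 0.358 over its alternatives, with a log2 change of -0.21 under normexp background correction. Of 27 other inflammasome and pyroptosis genes, 24 were tested, and 2, 1, 0, 0 and 0 were over-expressed, with 8, 11, 9, 6 and 4 at an unadjusted p under 0.05. These were Casp4, the caspase that senses intracellular lipopolysaccharide, on D0 (log2 0.79, SE 0.063), and Card9, an adaptor of C-type lectin receptors, on D0 (0.64, SE 0.09) and D3 (0.65). Card9 on D0 fell under the fold limit with normexp correction (0.53), with the authors' values (0.53) and without control rat 2 of D0 (0.58). The median log2 change of this list was 0.12, 0.19, 0.07, 0.02 and 0.07 over the 5 days, beside -0.04, 0.10, 0.05, -0.07 and 0.02 for the receptor list and 0.06, 0.00, -0.11, 0.00 and 0.06 for the signalling list.

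Of 24 genes known to be induced by interleukin-1, 22 were tested, and 11 were over-expressed on D0, 10 on D3 and 2 on D28, with 1 under-expressed on D90 and 0 on D180 by limma, where 8 had an unadjusted p under 0.05. Over all genes, 2.77% and 1.98% were called higher on D0 and D3, and 1.33%, 0.381% and 0.325% were called in either direction on D28, D90 and D180. The median log2 change of the list was 0.71, 0.67, 0.23, -0.14 and 0.23. Lcn2, an iron-binding protein of neutrophils and epithelium, changed by 3.22 on D0 and 2.45 on D3, and Ccl2, a monocyte chemokine, by 2.55 and 2.07. The neutrophil chemokine genes Cxcl1 and Cxcl2 changed by 1.72 and 1.82 on D0 and by 1.40 and 1.28 on D3, where Cxcl2 was no longer called with the D3 arrays alone or without control rat 1 or 5. Sele, an adhesion molecule of activated endothelium, changed by 2.01 on D0 (1.04 to 2.42 over its alternatives), with 3 of 5 control arrays well above background. Zc3h12a, an RNase that degrades cytokine mRNAs, changed by 1.39 and 0.89 on D0 and D3. Hp and C3, encoding haptoglobin and a complement component, changed by 1.58 and 1.35 on D0, 1.30 and 1.27 on D3 and 0.95 and 0.97 on D28, where they were the 2 genes called. Cxcl1 was the gene under-expressed on D90 (-1.06, SE 0.25, adjusted p = 0.0203), a call lost with the D90 arrays alone and without each of 4 arrays in turn. The D0 count includes Il6, which was not well above background on any of the 10 arrays. These genes also respond to other signals, and the list does not single out interleukin-1.

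**Figure D4:**
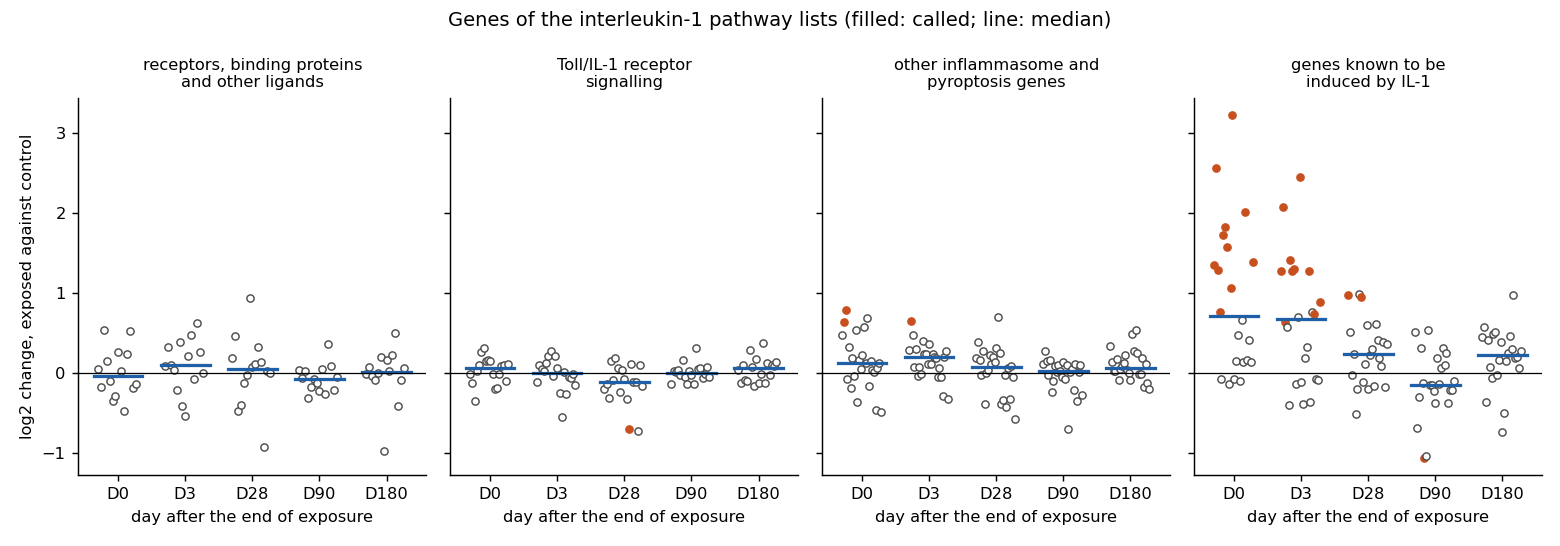
Log2 change of exposed against control rats (vertical axis) for every tested gene of the 4 pathway lists by day, with filled points for called genes and blue lines for list medians. The filled points of the induced-gene list numbered 11 on D0 and 10 on D3, against at most 2 in the other lists on any day.

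Markers of other cells moved on the same days. Of 15 neutrophil genes, 5, 5, 3, 1 and 1 were called higher on D0, D3, D28, D90 and D180, against 2.77% and 1.98% of all genes called higher on D0 and D3 and 1.33%, 0.381% and 0.325% called in either direction on the later days. On D0, the neutrophil score was -0.51 to -0.08 in control rats and 0.22 to 0.59 in exposed rats, and on D3 it was -0.37 to 0.16 and 0.34 to 0.54. On D28, it was -0.28 to -0.06 in control rats and -0.08 to 0.22 in exposed rats. S100a8 and S100a9, abundant in neutrophils, changed by 1.37 and 1.69 on log2 scale on D0, while the receptor genes Csf3r (0.18) and Cxcr2 (0.37) were not called. Of the 15 genes, 12 had a positive log2 change on D0, and Elane (-0.77), Ngp (-0.46) and Fpr1 (-0.31) a negative one. The granule genes Elane and Ltf were well above background on 2 and 3 of the 50 arrays, and Mpo, Fpr2 and Ngp on 17, 19 and 36. Lcn2 stands in both the neutrophil and the induced-gene list. Of 14 tested monocyte and macrophage genes, 2, 2, 0, 0 and 0 were called higher, namely Cd14 and Ccr2 on D0 and Siglec1 and Cd14 on D3, and Adgre1 was not tested. The log2 change was positive for 11 of the 14 on D0 and 10 on D3. It was negative on both days for Csf1r (-0.20 and -0.17) and Mrc1 (-0.05 and -0.22), among others. The macrophage score was -0.22 to 0.04 in control rats and 0.00 to 0.40 in exposed rats on D0, -0.09 to 0.13 and 0.16 to 0.65 on D3, and -0.20 to -0.02 and 0.05 to 0.34 on D28. The alveolar macrophage receptor gene Marco was well above background on 11 of the 50 arrays. All 10 alveolar type 2 genes were detected, and Lpcat1, a phospholipid-remodelling enzyme, was called higher on D0 and D3. The log2 change was positive for 8 of the 10 on D0 and 9 on D3, and negative on both days for Etv5 (-0.36 and -0.25). The alveolar type 2 score was -0.20 to -0.11 in control rats and 0.03 to 0.11 in exposed rats on D0, -0.16 to -0.09 and 0.07 to 0.16 on D3, and -0.11 to -0.02 and 0.08 to 0.15 on D28, with overlap on D90 and D180. Hopx was the 1 alveolar type 1 gene of 7 called, lower on D3, and Cldn5, Tek and Egfl7 were the 3 endothelial genes of 8 called, lower on D0, against 4.28% and 3.48% of all genes called in either direction on D0 and D3. The endothelial score was 0.19 to 0.35 in control rats and -0.38 to -0.13 in exposed rats on D0, -0.09 to 0.08 and -0.40 to -0.28 on D3, 0.01 to 0.16 and -0.20 to -0.04 on D28, and 0.12 to 0.21 and -0.10 to 0.08 on D90, without overlap on these 4 days. The alveolar type 1 score did not overlap on D0, at -0.05 to 0.28 in control rats and -0.34 to -0.10 in exposed rats. Of 9 lymphocyte genes Cd79b was called higher on D0, and of 9 mast cell and basophil genes Tpsb2 was called lower on D0 and D3 and Tpsab1 on D3. None of 7 fibroblast and 7 airway genes was called by limma, although 3 and 2 had an unadjusted p under 0.05 on D0 and 4 and 1 on D3. Over all 25208 genes, 5894 and 5496 had such a p on D0 and D3. Of 11 genes that respond to glucocorticoids, 1 was called higher and 2 lower on D0, 1 and 1 on D3, and 0 and 2 on D28. The median log2 change of this list was -0.56 on D0, -0.57 on D3 and 0.04 on D28. The part of these cell types and responses in the changes of Il1r2, Il1rn and Il1b was not tested.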

How the data were processed

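Spot fluorescence intensity was deposited as extracted by Agilent Feature Extraction 11.0.1.1 according to file headers and labels, whereas the study's methods name a later release. The processed signal, which is background-subtracted and not scaled between arrays, was log2 transformed after outlier spots were left out, spots were averaged per probe and arrays were quantile normalized. A deposited series matrix, whose values are quantile-normalized median intensity, was an alternative. Probes had to exceed 95% of the 308 negative controls on 5 or more of the 50 arrays (29549 of 30367), and the brightest probe on average stood for its gene.

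Groups came from the sample labels. The 10 group means were fitted with limma 3.58.1 in R 4.3.3, with two-sided p-values adjusted by Benjamini-Hochberg over 25208 genes. Each array was 1 rat, per the labels. The number of arrays limits the precision, and intensity gives no read depth. The fit was tested on simulated data. Replicate numbers were checked as pairs on deviations from group means, and they did not pair the rats (correlation over 0.1 in 8 of 25 pairs). Alternatives were 75th percentile scaling, normexp background correction with an offset of 50, the authors' values, a stricter filter, no filter, the mean of a gene's probes, adjusted p alone, slide or replicate as a block, the compared days alone, and leaving out each array.

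The members and lists were chosen with earlier results of these data known. All 10 members were named, and from each list of pathway genes at most 8 called genes with the largest change. Marker lists covered neutrophils, monocytes and macrophages, alveolar type 1 and type 2 cells, endothelium, fibroblasts, airway epithelium, lymphocytes, mast cells and basophils, and glucocorticoid-responsive genes, and marker genes named in the text were chosen after their values were seen. Promoters came from RefSeq for assembly GRCr8. Probe positions are those of the array files.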

Additional observations from a re-analysis of the deposited data

Results flagged for a closer look

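In 5 of the 100 sets of 5 rats formed by 10 genes and 10 groups, 1 rat stood apart from the others, and chance gives about 1 in 20. The gap to the nearest rat, as a share of the whole range of the group, was 0.714 for Il1b in exposed rat 5 of D0 (13.18, next 12.80) and 0.795 for Il1b in control rat 2 of D3 (13.13, next 12.21). It was 0.718 for Il18 in exposed rat 3 of D90, 0.805 for Il1rn in exposed rat 2 of D180 (13.36, next 13.07) and 0.752 for Nlrp3 in control rat 5 of D90 (5.49, next 5.98). Without exposed rat 2 of D180, the exposed rats still had Il1rn values of 13.01 to 13.07, above the highest control of 12.77.

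The exposure effect differed between days for both genes that restrain interleukin-1. For Il1r2 the log2 difference from the D0 effect was -1.05 on D90 (limma, adjusted p = 0.00376) and -0.98 on D180 (adjusted p = 0.00777). For Il1rn it was -0.49 on D90 (adjusted p = 0.00572) and -0.41 on D180 (adjusted p = 0.0297). The D0 rats enter all 4 comparisons.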

How the results depend on the processing

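Il1r2 and Il1rn on D0 and D3 were called under each alternative, and Il1b on D3 was not called with the day's arrays alone or without any 1 of 3 arrays, as given above. By adjusted p alone, members called numbered 4 on D0, 2 on D28, 1 on D90 and 1 on D180, 2 and 2 for the D90 and D180 effects against D0, and 3, 2, 3 and 5 in control rats of D3, D28, D90 and D180. For the effect on D28 against D0, 1 member (Il1r2) was called with normexp and with the authors' values. For that on D90, 2 members (Il1a added) were called with 75th percentile scaling, the authors' values, the stricter filter and the days alone, and on D180, 2 with the first 3 of these. With slide as a block, 0 members were called in control rats on D90 and 0 on D180. Leaving out 1 array gave 0 to 1, 1 to 2 and 1 to 2 called members for the D28, D90 and D180 effects against D0 and 0 to 1 for control rats on D28. Signs turned where changes were near 0. With slide as a block, Il33 on D180 became -0.030, Casp1 on D3 -0.044 and Casp1 on D180 -3.7e-04. Pycard on D180 became -0.0072 with normexp, Pycard on D90 0.016 with the authors' values, and Casp1 on D90 0.0085 with normexp and 0.012 with the authors' values. Without 1 array, the ranges were -0.13 to 0.029 for Il1a on D180, -0.043 to 0.059 for Il33 on D180, -0.0070 to 0.20 for Il1r2 on D90, -0.25 to 0.062 for Il1r1 on D0 and -0.13 to 0.11 on D90, -0.15 to 0.015 for Nlrp3 on D90, -0.076 to 0.048 for Pycard on D90 and -0.015 to 0.046 on D180, and -0.013 to 0.11, -0.029 to 0.046 and -0.074 to 0.018 for Casp1 on D0, D3 and D90. The cause was not tested.

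With the replicate number within each day as a replicate block, called members numbered 2, 3, 0, 0 and 0 over the 5 days and 0, 0, 1 and 1 for the effects against D0, as without it, and no call of a member changed. Same-numbered rats correlated at -0.338 to 0.449.

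Counts over all genes moved by over 1.5 times. Called genes numbered 1079, 878, 335, 96 and 82 on the 5 days, and 582, 478 and 140 with normexp and 664, 534 and 160 with the authors' values on D0, D3 and D28. Normexp gave 51 on D180, slide as a block 152 and 140 on D90 and D180, the days alone 529 and 121 on D3 and D28, and adjusted p alone 3406, 2628, 978, 264 and 225. For the effects against D0 there were 171, 405, 548 and 565, with 314, 646, 851 and 902 under the slide block, 85 and 248 with the days alone on D3 and D28, and 657, 951 and 1005 by adjusted p alone from D28 on. For control rats there were 587, 627, 1374 and 1388, with 264, 300, 563 and 613 under normexp, 310, 346, 683 and 755 with the authors' values, 429 and 426 under the slide block on D90 and D180, and 1855, 1784, 3859 and 3742 by adjusted p alone.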
